A study of Mus musculus with 12 samples.

Results

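The high-numbered miRNAs of the heart arrays are those named miR-1000 and above, a part of the miRNA catalogue that was annotated late. They were taken by name from the normalized table that the authors deposited, which lists 209 miRNAs, and 72 of the 209 had such a name and are called members here. The other 137 are called lower-numbered. The array carried 1881 miRNAs, 1062 of them high-numbered and 819 lower-numbered. A miRNA was in the table where every array of some group had detected it, so the members had passed a filter on detection and stand for the measurable end of their class. Their numbers ran from 1187 to 8117, and 37 of the 72 names gave the 5p arm of the hairpin, 4 the 3p arm and 31 no arm.

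Each of the 12 arrays measured the heart muscle of 1 male C57BL6/J mouse aged 5 months, from 3 different mice per group. Control mice (C) had no diabetes and no drug, and C + P mice received the monoamine oxidase (MAO) inhibitor pargyline for 12 weeks at a daily dose of 50 mg/kg. Diabetic mice (D) received streptozotocin, which destroys pancreatic beta cells, on 5 days at 50 mg/kg each and then vehicle, and D + P mice received streptozotocin and then pargyline at the same doses. The question of the study was whether MAO activity in the diabetic heart acts through miRNAs. Both agents reached the whole animal, so the groups model systemic diabetes and systemic MAO inhibition. Slide 1 carried the untreated hearts and slide 2 the hearts treated with pargyline, so pargyline cannot be told apart from slide. On both slides C or C + P occupied row 1 and D or D + P row 2, and row and diabetes cannot be told apart either.

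The sample records name heart muscle as the tissue, but their extraction text speaks of macrophages. The heart and skeletal muscle miRNAs miR-133b-3p, miR-1a-3p and miR-133a-3p had median signals of 3300, 2916 and 2246, and the heart muscle miRNAs miR-499-5p and miR-208a-3p of 145 and 47.9. All 5 were detected on all 12 arrays. Of the leukocyte miRNAs, miR-223-3p had a median signal of 15.9 and miR-142a-3p of 16.4, both detected on all 12 arrays, and miR-155-5p was detected on 7 of the 12. MiR-146a-5p, miR-150-5p and miR-142a-5p were detected on 12, 11 and 7 arrays. The red cell miRNAs miR-451a, miR-486a-5p and miR-144-3p had median signals of 604, 96.4 and 64.4, and the endothelial miR-126a-3p of 890. Markers of the labelled tissue were thus present, and so were those of leukocytes, red cells and endothelium. In whole tissue, fewer cells of a type and less RNA per cell cannot be told apart.

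MiRNAs are short RNAs cut from hairpin precursors and loaded into Argonaute proteins, where the seed, the bases next to the 5′ end, pairs with messenger RNAs and lowers their stability or translation. Databases number miRNAs in order of submission, so the numbers of the members mark entries that came mostly from deep sequencing. Some of these entries derive from mirtrons, short introns that fold into a hairpin once spliced, and others overlap repeats or fragments of other RNAs. Late entries include well-supported miRNAs as well as sequences whose status as a miRNA is debated.

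Mature sequences from RefSeq (GRCm38.p6) were found for 63 of the 72 members and for 113 of the 137 lower-numbered miRNAs. Those of the brightest and the most changed members are shown first, then examples of the G-rich sequences that are common among the members, then sequences that share a start or a seed. The capitals mark the seed (bases 2 to 8), the strand is given by plus or minus, and a named gene is one whose span in RefSeq holds the miRNA.
miR-6366: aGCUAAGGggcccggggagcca (chr16:18165093-18165114, minus)
miR-3963: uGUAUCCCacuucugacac (chr3:151023839-151023857, minus)
miR-5100: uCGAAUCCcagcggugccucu (chr11:60728698-60728718, plus, in Mief2)
miR-3968: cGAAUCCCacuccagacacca (chr11:115447969-115447989, minus, in Trim80)
miR-7005-5p: cCUGGGGAugggaggaccagca (chr2:180179797-180179818, minus, in Lama5)
miR-5622-3p: cUUAGCUGgguagugguggugc (chr2:152865105-152865126, plus, in Tpx2)
miR-3620-5p: cUGUGGGCugggcugggaagca (chrX:150547424-150547445, minus, in Alas2 and Apex2)
miR-6937-5p: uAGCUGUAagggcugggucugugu (chr12:28679325-28679348, plus, in Adi1)
miR-5126: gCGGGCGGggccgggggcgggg (chr1:84695890-84695911, plus, in Dner)
miR-8110: aAGCGUGGauugggggggggg (chr8:89024791-89024811, plus)
miR-1224-5p: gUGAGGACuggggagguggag (chr16:20604452-20604472, plus, in Vwa5b2)
miR-3102-5p: gUGAGUGGccaggguggggcug (chr7:100882388-100882409, minus, in Arhgef17)
miR-6944-5p: gUGAGAGCggggggaguggcaag (chr13:55477754-55477776, minus, in Dbn1)
miR-7018-5p: gUGAGCAGacagggaguggugggg (chr4:137538286-137538309, plus, in Hspg2)
miR-7070-5p: gUGAGGGGagcugaggcagga (chr8:85062086-85062106, plus, in Fbxw9)
miR-3473b: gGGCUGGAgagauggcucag (chr10:41670774-41670793, plus, in Ccdc162)
miR-3473e: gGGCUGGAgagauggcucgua (chr5:31667296-31667316, minus, in Rbks)
miR-3473a: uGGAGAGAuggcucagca (chrX:162874920-162874937, minus, in Syap1)

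The members were G-rich. Their median G content was 50% (9.52 to 77.3%), against 22.7% in the lower-numbered miRNAs of the table, and their median GC content was 63.6% against 45.5%. Median U content was 14.3% against 27.3%, while the median length was 22 bases in both sets. A run of at least 3 G (GGG) occurred in 46 of the 63 members (73.0%), in 21 of the 113 lower-numbered miRNAs (18.6%) and in 30.6% of the 1679 mature mouse sequences. A run of at least 4 G (GGGG) occurred in 31 members, in 5 lower-numbered miRNAs and in 11.2% of all mature sequences. The longest, of 10 G, was in miR-8110. These are properties of the listed sequences, and no probe sequence was used here.

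Position in the genome was compared next. The span of a protein-coding gene held 50 of the 63 members (79.4%) and 53 of the 113 lower-numbered miRNAs (46.9%), on either strand. The letters GUGAG, which include the GU of a 5′ splice site, opened 5 members, no lower-numbered miRNA and 0.834% of all mature sequences, and all 5 members lay in the span of a protein-coding gene. The mature sequence began within 1 base of the 5′ end of its hairpin in 8 of the 59 members with a hairpin in RefSeq and in 0 of 106 lower-numbered miRNAs. None of the 63 members had more than 1 genomic copy, against 18 lower-numbered miRNAs.

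Few members shared a seed within the table. A seed was shared with another miRNA of the table by 6 members and by 54 lower-numbered miRNAs. The 6 formed the pairs miR-7047-5p with miR-6965-5p, miR-3473b with miR-3473e, and miR-3547-5p with miR-6368, and no member shared its seed with a lower-numbered miRNA of the table. Some members shared a seed only with a mature sequence outside the table, as miR-7005-5p and miR-3620-5p did with 1 each. Besides whole seeds, UGGAGAGAUGGCUC occurred in miR-3473a, miR-3473b and miR-3473e and in no other of the 1679 mature sequences (0.179%). AUCCCA occurred in miR-3963, miR-3968 and miR-5100, all among the 4 brightest members, and in 0.417% of all mature sequences. A probe for one of such related sequences may also bind another, and whether the probes of these members did was not tested.

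Detection was counted on each array. On the C arrays 55, 47 and 48 high-numbered miRNAs were detected, on C + P 75, 77 and 93, on D 60, 45 and 41, and on D + P 76, 81 and 71. Pargyline-treated hearts thus lay above all untreated hearts, and the D arrays lay on both sides of the C range. Lower-numbered miRNAs numbered 108, 97 and 98 in C, 139, 141 and 160 in C + P, 143, 134 and 124 in D, and 111, 137 and 144 in D + P. For these every D array exceeded every C array, and D overlapped with D + P. Detected miRNAs summed to a signal between 27107 and 89040 per array, the C arrays being the dimmest and C + P replicate 3 the brightest. D + P replicate 1 stood apart from the other pargyline arrays, with the fewest lower-numbered miRNAs, and the counts of called members without it are given for each comparison of groups.

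**Figure D1:**
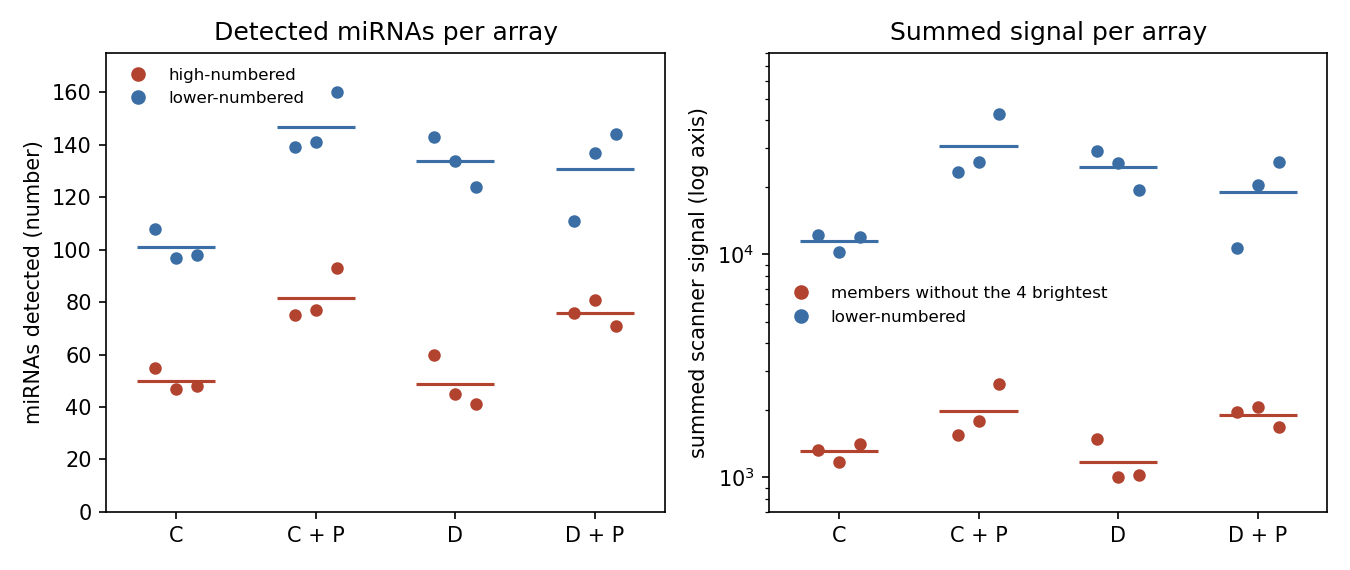
Number of miRNAs detected on each array (left) and summed scanner signal on a log axis (right), with 3 arrays per group as points and their mean as a line. The C + P and D + P arrays held 71 to 93 detected high-numbered miRNAs and the C and D arrays 41 to 60, whereas the lower-numbered sum (right) was lowest in C and in D + P replicate 1.

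Most of the members' signal came from 4 miRNAs, miR-6366, miR-3963, miR-5100 and miR-3968, which together held 49.0 to 68.0% of the whole signal of an array. Signals of different probes do not compare as amounts of RNA, and the share is given as a property of the arrays. All 72 members held 65.0, 62.2 and 62.0% of the signal in C, 59.7, 58.4 and 52.0% in C + P, 52.5, 51.5 and 59.6% in D, and 72.9, 59.1 and 55.8% in D + P. Every D array was below every C array in this share, and D + P replicate 1 was above all others. The other 68 members together summed to 1327, 1176 and 1418 in C, 1542, 1789 and 2618 in C + P, 1488, 1004 and 1029 in D, and 1969, 2059 and 1684 in D + P. The lower-numbered miRNAs summed to 12244, 10228 and 12016 in C, 23323, 26085 and 42636 in C + P, 29059, 25800 and 19428 in D, and 10705, 20570 and 25906 in D + P. The D arrays thus exceeded all C arrays in lower-numbered signal, while the sum of the 68 dimmer members overlapped between C and D. In D + P the same sum exceeded all D arrays.

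MiR-6366, the brightest miRNA on the array by median, gave signals of 13110, 9501 and 10502 in C, 18041, 18370 and 23606 in C + P, 16894, 14351 and 17233 in D, and 16440, 14964 and 17685 in D + P. C was dimmest without overlap. MiR-3963 gave 6671, 5077 and 6391 in C, 11093, 12090 and 13906 in C + P, 10339, 8898 and 8004 in D, and 8479, 10300 and 10306 in D + P, again with C dimmest and C + P brightest. MiR-5100, which lies in the span of Mief2, gave 1013, 726 and 874 in C, 2195, 2261 and 3010 in C + P, 2367, 2064 and 1601 in D, and 1051, 1433 and 1940 in D + P. The C arrays and D + P replicate 1 were lowest and C + P replicate 3 highest, as in the lower-numbered sum. MiR-3968 gave 659, 391 and 491 in C, 1685, 2132 and 3141 in C + P, 1100, 1028 and 810 in D, and 983, 1072 and 1106 in D + P. The C + P arrays stood above all others for this miRNA, and D overlapped with D + P.

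**Figure D2:**
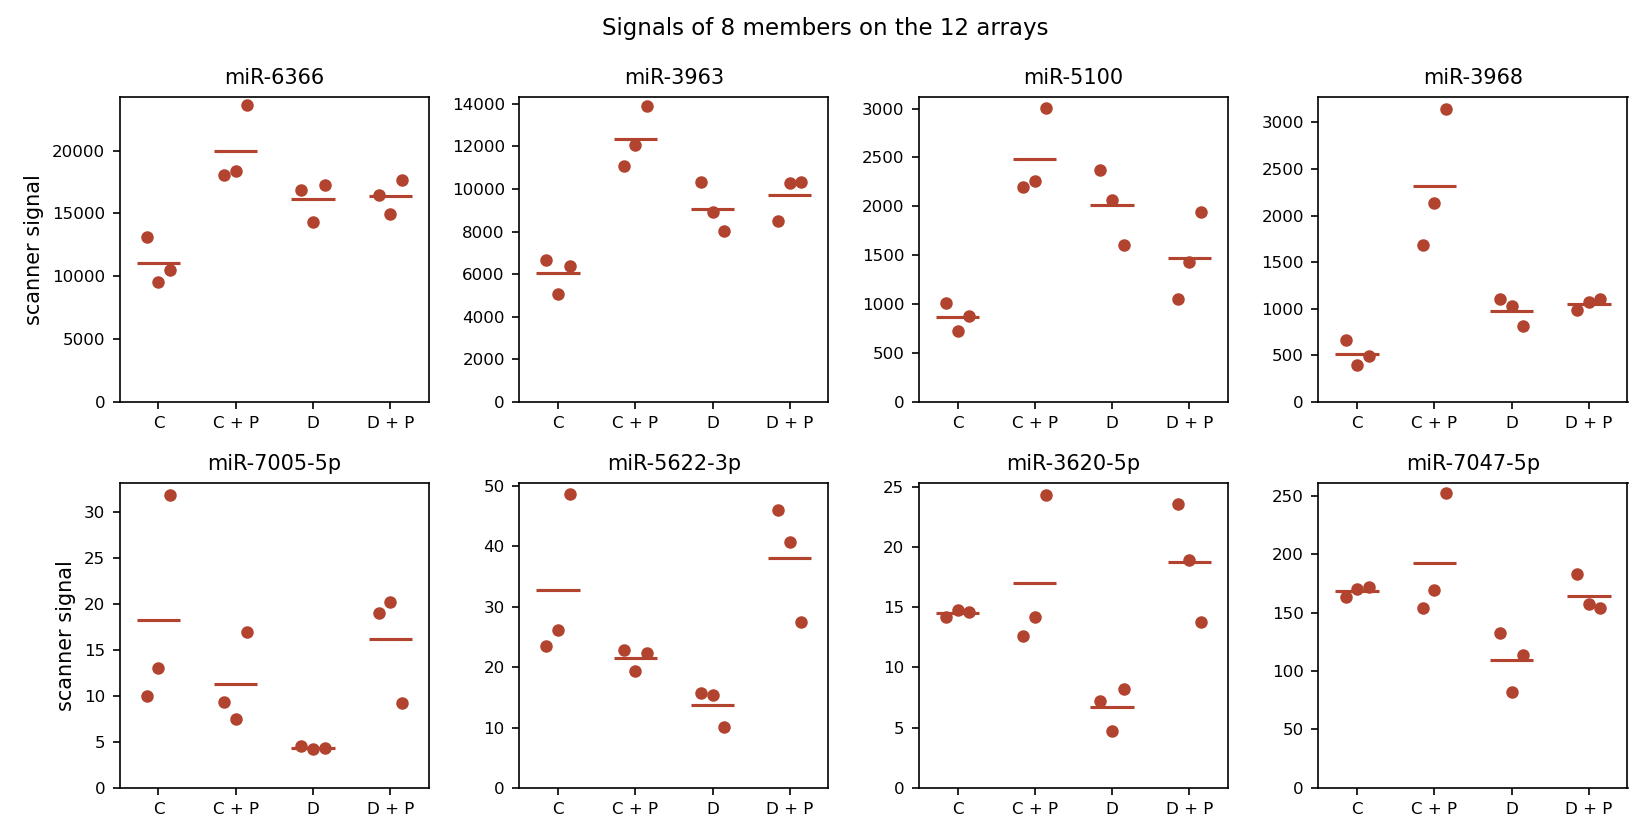
Scanner signal of 8 members on the 12 arrays on linear axes from 0, with 3 arrays per group as points and their mean as a line. The 4 brightest members (upper row) were lowest in C, whereas miR-7005-5p, miR-5622-3p, miR-3620-5p and miR-7047-5p (lower row) had their lowest mean in D.

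The relation to the total signal of the array was described for the 128 miRNAs detected on all 12 arrays, 38 members and 90 lower-numbered miRNAs. For each, log2 signal was regressed on the log2 summed signal of all other detected miRNAs over the 12 arrays, so that a slope of 1 means a signal in proportion to the rest of the array. The median slope was 0.45 for the members (-0.64 to 1.65) and 1.23 for the lower-numbered miRNAs (0.05 to 2.59). A slope under 0.5 was found for 22 of 38 members and 8 of 90 lower-numbered miRNAs, and a slope over 1 for 5 members and 60 lower-numbered miRNAs. Most members thus rose less than in proportion to the rest of the array. A low slope is not a constant signal, as the highest array exceeded the lowest by a median of 3.11-fold for members and 4.40-fold for lower-numbered miRNAs. Within slide 1 the median slopes were 0.03 and 1.21, and within slide 2 they were 0.22 and 1.52. The arrays share their groups in this relation, so total signal and group cannot be told apart, and no test was made.

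Individual members spanned the whole range. The highest slopes were those of miR-3968 at 1.65 (SE 0.21) and miR-5100 at 1.33 (SE 0.10), followed by miR-1949 at 1.20, miR-8101 at 1.09 and miR-3098-5p at 1.00. MiR-3963 had a slope of 0.79 and miR-6366 of 0.56. Slopes below 0 were those of miR-7005-5p at -0.64 (SE 0.59), miR-5622-3p at -0.54 (SE 0.41) and miR-3620-5p at -0.06 (SE 0.45), and they lay less than 2 SE from 0. MiR-7047-5p at 0.06 (SE 0.25), miR-5126 at 0.14 (SE 0.18) and miR-8110 at 0.14 (SE 0.18) had slopes near 0 over arrays whose summed signal ranged from 27107 to 89040. Their signals still varied between arrays, that of miR-7047-5p from 82.4 to 253.

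The slope was also set beside base composition. In the 34 such members with a sequence, the slope correlated with G content with r = -0.46 and rho = -0.41, across miRNAs, which are not independent and share the 12 arrays. In the 74 lower-numbered miRNAs with a sequence, r was -0.32 and rho -0.25. Members with a run of at least 3 G (27) had a median slope of 0.39, and those without (7) of 1.00. Among lower-numbered miRNAs the medians were 1.14 with such a run (9) and 1.32 without (65). The AUCCCA miRNAs miR-3963, miR-3968 and miR-5100 were 3 of the 7 members without a G run. Brightness did not order the slopes in the same way, as the median was 0.43 for the 27 members with a median signal under 60 and 0.47 for the 11 at or above it, and 1.25 and 1.22 for the 45 and 45 lower-numbered miRNAs.

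**Figure D3:**
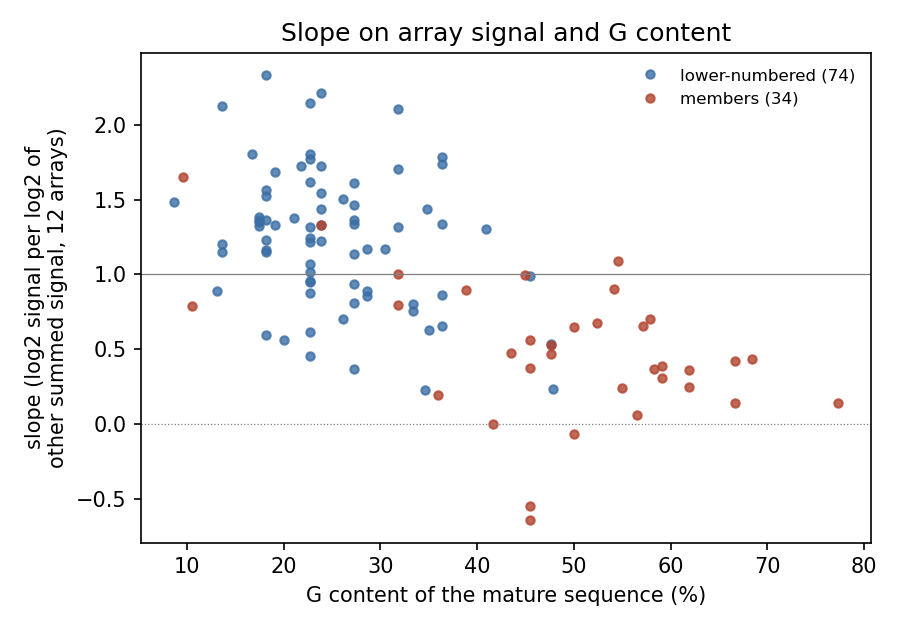
Slope of log2 signal on the log2 summed signal of all other miRNAs over 12 arrays, against the G content of the mature sequence in percent, for 34 members (red) and 74 lower-numbered miRNAs (blue). Members lie mostly to the right of and below the lower-numbered miRNAs, with a median slope of 0.45 over all 38 members against 1.23.

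For the group comparisons, log2 signals of the 128 miRNAs were normalized by cyclic loess and 4 group means were fitted together with limma, with Benjamini-Hochberg adjustment over the 128 and a threshold of 0.05. Normalization makes each value relative to the other miRNAs of its array. Before it, all 128 miRNAs had a median log2 difference of 1.15 (C + P versus C), 0.77 (D versus C), -0.12 (D + P versus D) and -0.41 (D + P versus C + P), and it removes these shifts. Unnormalized differences are therefore given beside the normalized ones.

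In D versus C, 21 of the 38 members were called lower and 0 higher, while 25.8% of all 128 miRNAs were called lower and 24.2% higher. At an unadjusted p under 0.05, 26 members passed. The estimates were below 0 for 35 members, with a median log2 difference of -0.55 (-2.24 to 0.27), beside 0.02 over all 128 and 0.24 over the 90 lower-numbered miRNAs, of which 31 were called higher and 12 lower. The D and C arrays did not overlap in 26 members that were lower in D and in 1 that was higher, miR-5100, against 34.4% and 35.2% of all 128. Before normalization the members' median difference was -0.07, with 15 above and 23 below 0, and that of the lower-numbered miRNAs was 0.98, with 84 of 90 above 0. The members' differences before normalization thus lay on both sides of 0, from -1.89 to 1.20, whereas most lower-numbered miRNAs were brighter in D. Without C replicate 2, 11 members were called, where 33 of all 128 miRNAs were called in place of 64. Without D + P replicate 1, 28 members and 88 of the 128 were called.

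The largest difference was that of miR-7005-5p, a 5p product from the span of Lama5, which encodes a laminin chain of basement membranes. Its signals were 10.04, 13.1 and 31.9 in C, 9.34, 7.47 and 17.0 in C + P, 4.52, 4.203 and 4.34 in D, and 19.02, 20.3 and 9.25 in D + P. All D arrays were the lowest of the 12, and C replicate 3 was the highest. The log2 difference of D versus C was -2.24 (SE 0.42, limma adjusted p = 0.0031), and -1.89 without normalization. MiR-5622-3p, in the span of the spindle factor gene Tpx2, gave 23.5, 26.2 and 48.6 in C, 22.9, 19.4 and 22.3 in C + P, 15.7, 15.4 and 10.1 in D, and 46.0, 40.7 and 27.5 in D + P. D was again lowest without overlap with any group, by -1.84 against C (SE 0.36, limma adjusted p = 0.0035).

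MiR-3620-5p lies in the span of Alas2, which encodes the heme synthesis enzyme of red cell precursors, and of Apex2. Its signals were 14.2, 14.8 and 14.6 in C, 12.6, 14.2 and 24.3 in C + P, 7.22, 4.68 and 8.21 in D, and 23.6, 18.9 and 13.8 in D + P, with no overlap between D and any other group. It was lower in D than in C by a log2 difference of -1.59 (SE 0.28, limma adjusted p = 0.0031). MiR-7047-5p gave 163, 170 and 172 in C, 154, 169 and 253 in C + P, 133, 82.4 and 114 in D, and 183, 157 and 154 in D + P. D was lowest without overlap, with a difference of -1.42 (SE 0.28, limma adjusted p = 0.0035) that was -0.64 without normalization. MiR-6937-5p, in the span of Adi1, gave 51.9, 53.5 and 53.6 in C, 48.3, 51.1 and 75.04 in C + P, 39.6, 24.2 and 36.2 in D, and 60.6, 50.2 and 47.6 in D + P. Its D arrays were also lowest without overlap, and its log2 difference was -1.36. The calls of miR-7005-5p, miR-5622-3p and miR-3620-5p in D versus C held without any 1 array. They were lost with no filter on detection and under the methods' t-test with Holm adjustment, where 0 members passed. All of these calls were also lost under this t-test with Benjamini-Hochberg adjustment, that of miR-3620-5p at a t-test adjusted p of 0.054.

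The other 16 members called lower in D had log2 differences from -0.52 to -1.22. MiR-7686-5p, at -1.22, gave 36.1, 35.3 and 36.6 in C and 29.0, 19.4 and 25.9 in D. MiR-7042-5p, at -1.19, gave 32.9, 23.99 and 32.6 in C and 29.7, 23.0 and 12.9 in D, which overlap before normalization. MiR-1224-5p, at -0.99, gave 124, 106 and 160 in C and 133, 104 and 95.3 in D. These signals overlapped too, so that its call rests on the normalization. Called lower as well were miR-7002-5p, miR-8117, miR-6769b-5p, miR-5126, miR-7118-5p, miR-1895, miR-8110, miR-3960, miR-7082-5p, miR-5128, miR-3473b, miR-6931-5p and miR-7018-5p. MiR-3473b gave 97.8, 83.1 and 110 in C and 123, 119 and 91.8 in D, and its difference was -0.54 with normalization and 0.20 without. The estimates above 0 belonged to miR-1949 (0.27), miR-8101 (0.24) and miR-5100 (0.20), none of which passed.

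**Figure D4:**
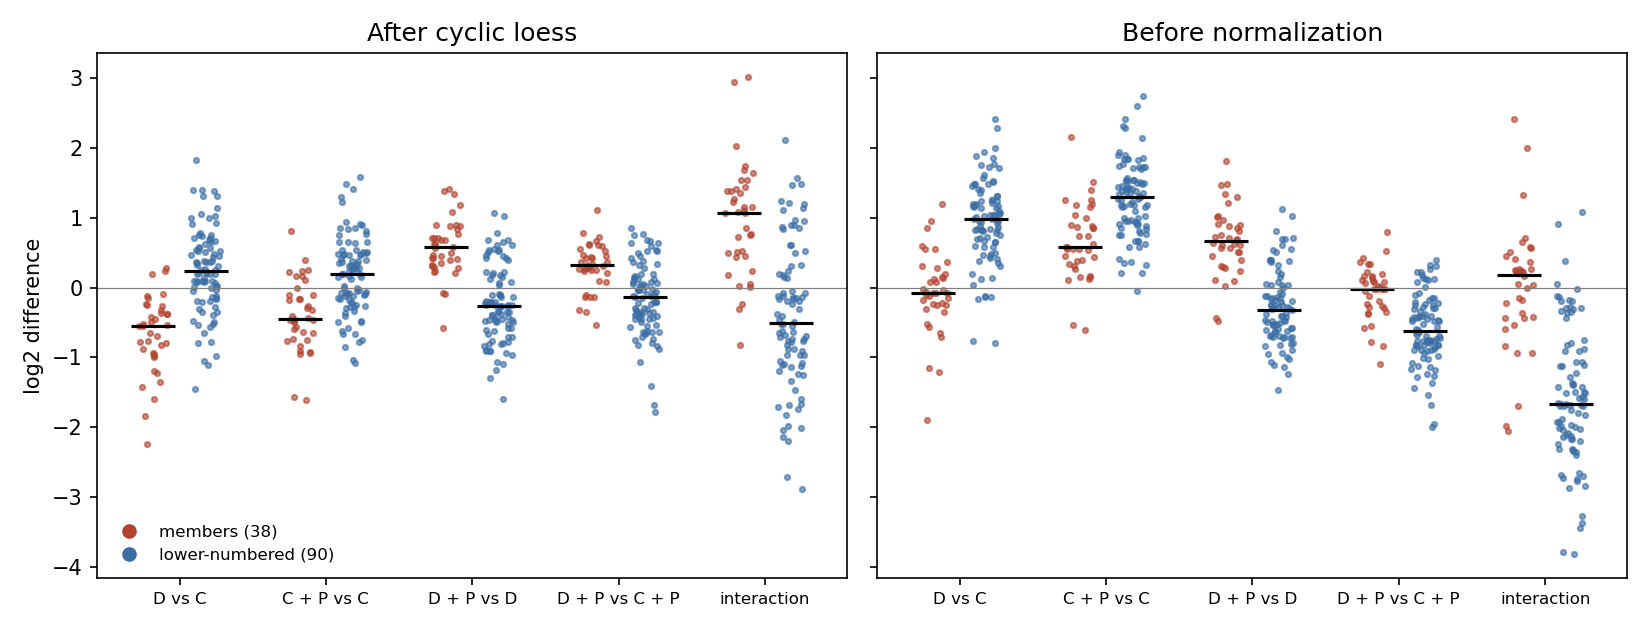
Log2 differences of 38 members (red) and 90 lower-numbered miRNAs (blue) in 4 comparisons and the interaction, after cyclic loess (left) and before normalization (right), with 1 point per miRNA and the median as a black line. In D versus C the medians are -0.55 and 0.24 after and -0.07 and 0.98 before normalization, and in D + P versus D they are 0.58 and -0.26 after and 0.66 and -0.32 before.

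In C + P versus C, 13 members were called lower and 1 higher, against 18.8% and 18% of all 128 miRNAs. The median log2 difference of the members was -0.44 (-1.60 to 0.81), beside -0.04 over all 128 and 0.20 over the lower-numbered miRNAs. This direction rests on the normalization, since before it 36 of 38 members were above 0 with a median of 0.58, and 17 were called higher and 0 lower where 75% of the 128 were called higher. With each slide normalized alone the median was 0.18, but C and C + P lie on different slides, so this setting keeps any signal shift between slides. Without C replicate 2, C replicate 3, C + P replicate 2 or C + P replicate 3, limma called 0 members, with 14, 15, 16 and 11 at an unadjusted p under 0.05, and it called 3, 4, 4 and 3 of all 128 miRNAs in place of 47. Without C + P replicate 1 it called 6 members and 23 of the 128, and without D + P replicate 1 it called 23 members and 79 of the 128.

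The member called higher was miR-3968, with a log2 difference of 0.81 (SE 0.23, limma adjusted p = 0.026) and of 2.16 before normalization. The lowest estimates were those of miR-7005-5p at -1.60 (SE 0.42, limma adjusted p = 0.026) and miR-5622-3p at -1.56 (SE 0.36, limma adjusted p = 0.017). Before normalization these were -0.61 and -0.53, and they were the only members below 0. MiR-5126, a sequence made of G and C alone, gave 143, 134 and 158 in C and 132, 149 and 200 in C + P. These signals overlapped, and its difference was -0.95 with and 0.13 without normalization. The others called lower were miR-6937-5p, miR-7047-5p, miR-8110, miR-3620-5p, miR-3960, miR-3102-5p, miR-1224-5p, miR-6769b-5p, miR-1895 and miR-7082-5p, with differences from -0.94 to -0.56 after normalization and from 0.11 to 0.45 before it.

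In D + P versus D, 21 members were called higher and 1 lower, against 26.6% and 27.3% of all 128 miRNAs. Estimates were above 0 for 35 of 38, with a median log2 difference of 0.58 (-0.58 to 1.41), beside -0.09 over all 128 and -0.26 over the lower-numbered miRNAs, of which 13 were called higher and 34 lower. The direction was the same before normalization, with 36 of 38 members above 0 and a median of 0.66, beside -0.32 for the lower-numbered miRNAs. All D + P arrays exceeded all D arrays in 17 members, against 25.8% of the 128. The count moved with the libraries, as 6 members were called without D replicate 2, 8 without D replicate 1 or D + P replicate 1, 13 without C + P replicate 2 and 14 without C + P replicate 3. Of all 128 miRNAs, 13 were called without D replicate 2, 26 without D replicate 1, 29 without D + P replicate 1 and 50 without either of these C + P arrays, in place of 69. With the authors' normalized values limma called 0, with 8 at an unadjusted p under 0.05. Fitted on the D and D + P arrays alone, limma also called 0 members, and the t-test called 0 under either adjustment. Counts over all 128 miRNAs are not given for these settings, so the falls need not be particular to the members. Every member called here had a larger standard deviation after normalization in D + P than in D. It was 0.60 against 0.09 for miR-1224-5p and 0.69 against 0.25 for miR-5622-3p. The main fit takes 1 spread per miRNA for all 4 groups, so the SE of this comparison may be understated.

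MiR-7005-5p had the largest difference, 1.41 (SE 0.42, limma adjusted p = 0.022), followed by miR-5622-3p at 1.39 (SE 0.36, limma adjusted p = 0.016). MiR-7042-5p, for which D + P gave 54.5, 60.2 and 43.1 against 29.7, 23.0 and 12.9 in D, differed by 1.34 (SE 0.27, limma adjusted p = 0.00999). MiR-3620-5p differed by 1.18 (SE 0.28, limma adjusted p = 0.013). The call of miR-7005-5p was lost without D replicate 1 (limma adjusted p = 0.062), D replicate 2 (0.065), D + P replicate 1 (0.093) or D + P replicate 2 (0.056), and that of miR-3620-5p without D replicate 2 (0.052). MiR-7118-5p, in the span of Plxnb2, gave 18.6, 16.01 and 14.8 in C, 19.5, 24.3 and 29.6 in C + P, 20.1, 13.8 and 9.83 in D, and 37.9, 34.3 and 26.0 in D + P. The D + P arrays exceeded all D arrays and overlapped with C + P, and the difference from D was 1.08 (SE 0.25, limma adjusted p = 0.013). MiR-3473a gave 18.2, 16.3 and 12.7 in D and 31.9, 35.0 and 27.9 in D + P, and its difference was 0.90.

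The 1 member called lower was miR-1949. It gave 12.6, 10.8 and 14.9 in C, 23.0, 29.8 and 40.5 in C + P, 29.1, 21.5 and 19.1 in D, and 9.32, 21.1 and 24.6 in D + P, so that D overlapped with D + P replicates 2 and 3 before normalization. Its log2 difference was -0.58 (SE 0.20, limma adjusted p = 0.031), and without D + P replicate 1 it was -0.32 (limma adjusted p = 0.091). No sequence was found for it in the reference tables.

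In D + P versus C + P, limma called 0 of the 38 members, with 10 at an unadjusted p under 0.05, where 13.3% of all 128 miRNAs were called, 5.47% higher and 7.81% lower. Without normalization it called 0 too, with 4 at an unadjusted p under 0.05, where 1.56% of the 128 were called, all of them lower. The median log2 difference was 0.32 after normalization and -0.01 before it, so its direction depends on the normalization. The largest estimate was that of miR-5622-3p at 1.11 (limma adjusted p = 0.058). Without D + P replicate 3, 21 members were called, 20 of them higher in D + P, where 73 of all 128 miRNAs were called in place of 17. Without D replicate 1 it was 1 member and 14 of the 128, and without D + P replicate 1 it was 1 member, lower, and 10 of the 128.

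The comparisons D versus C, C + P versus C and D + P versus D share arrays, so their values for a member are not independent. They are given side by side for 3 members. MiR-7042-5p had normalized log2 differences of -1.19 in D versus C, -0.41 in C + P versus C and 1.34 in D + P versus D. MiR-7686-5p had -1.22, -0.64 and 0.90, and miR-8117 had -0.94, -0.49 and 0.88, in the same order. For these 3 members the differences of D versus C and of D + P versus D passed the test, and those of C + P versus C did not (limma adjusted p = 0.24, 0.059 and 0.064). Before normalization their C + P versus C differences were above 0 (0.62, 0.39 and 0.58), so that sign depends on the normalization.

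The interaction, (D + P minus D) minus (C + P minus C), cancels a slide effect or a row effect that adds to the log2 signal. It was called above 0 for 27 members and below 0 for 1, miR-1949 at -0.81, against 35.2% of the 128 miRNAs in each direction and 70.3% in either. The median was 1.07 (-0.81 to 3.02), beside -0.08 over all 128 and -0.50 over the lower-numbered miRNAs, of which 18 were called above and 44 below 0. MiR-7005-5p stood at 3.02 (SE 0.59, limma adjusted p = 0.0028), miR-5622-3p at 2.95 (SE 0.51, limma adjusted p = 0.0026) and miR-3620-5p at 2.02 (SE 0.40, limma adjusted p = 0.0028). Before normalization the members' median was 0.19, with 22 above and 16 below 0, and that of the lower-numbered miRNAs was -1.66. The normalized members' median thus fell on opposite sides of 0 for pargyline in control and in diabetic hearts, while before normalization it was above 0 in both.

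Without any normalization a few members still passed. In D versus C, 3 members were lower, miR-7005-5p, miR-5622-3p (-1.21) and miR-3620-5p (-1.16), and they were all of the 2.34% of the 128 miRNAs called lower, beside 44.5% called higher. MiR-5100 (1.20) and miR-3968 (0.95) were among those called higher. In D + P versus D, 6.25% of the 128 were called, all higher and all members. These 8 were miR-7005-5p (1.81), miR-3620-5p (1.49), miR-5622-3p (1.47), miR-7042-5p (1.34), miR-5128 (1.30), miR-7118-5p (1.21), miR-3473a (1.02) and miR-1897-5p (0.97). In the interaction 2.34% were called above 0, and they were miR-7005-5p (2.42), miR-5622-3p (2.00) and miR-3620-5p (1.32). The 4 members called below 0, against 52.3% of the 128, were miR-3968 (-2.04), miR-5100 (-1.99), miR-1949 (-1.69) and miR-3963 (-0.94).

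The estimates were then split by G runs, as a description. Of the 27 members with a run of at least 3 G, all 27 had a D versus C estimate below 0, 18 were called lower, and the median was -0.69. Of the 7 without, 5 were below 0, 1 was called, and the median was -0.12. Lower-numbered miRNAs had medians of 0.26 with such a run (9) and 0.23 without (65). In the interaction the medians were 1.11 and 0.43 for members, and -0.24 and -0.55 for lower-numbered miRNAs. In D + P versus D, by contrast, members with and without a G run had medians of 0.50 and 0.57. Split at a median signal of 60, dim members (27) had a D versus C median of -0.54 and bright ones (11) of -0.76, against 0.37 and 0.09 for lower-numbered miRNAs, so dim and bright members had medians on the same side of 0. The members' median signal was 23.4 against 60.3, and their median relative error as given by the scanner software was 9.65% against 7.90%. Whether base composition of probe or target plays a part in the members' values was not tested.

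The remaining members detected on all arrays were mostly dim. The 8 members with no call in any comparison or in the interaction were miR-5100, miR-3473g, miR-6368, miR-6908-5p, miR-6538, miR-7020-5p, miR-2137 and miR-8101. After miR-5100, miR-3473g was the brightest of them, with 44.2, 40.7 and 39.0 in C, 76.3, 84.0 and 127 in C + P, 65.0, 57.6 and 39.7 in D, and 47.4, 60.1 and 85.7 in D + P. It followed the array signal with a slope of 1.00. MiR-8101 gave 5.49, 4.18 and 6.35 in C, 11.3, 12.7 and 18.3 in C + P, 12.3, 8.45 and 4.50 in D, and 15.4, 15.9 and 11.3 in D + P. C + P exceeded C on every array, and C and D overlapped.

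The 34 members outside the 128 were undetected on at least 1 array, where the files hold 0.1 in place of a signal. They were detected on all 3 arrays of C in 6 cases, of C + P in 32, of D in 1 and of D + P in 29, and on no array of C in 17, of D in 13 and of C + P or D + P in 0. They entered the table through a group in which they were detected, so these counts describe them and support nothing further. Of the 34, 33 were detected on fewer arrays in D than in D + P. Among the 47 lower-numbered miRNAs in the same position, 8 were detected on fewer arrays in D than in D + P and 23 on more. Between C and D, 8 of the 34 members were on more arrays in C and 7 on more in D, while 42 of the 47 lower-numbered miRNAs were on more in D.

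**Figure D5:**
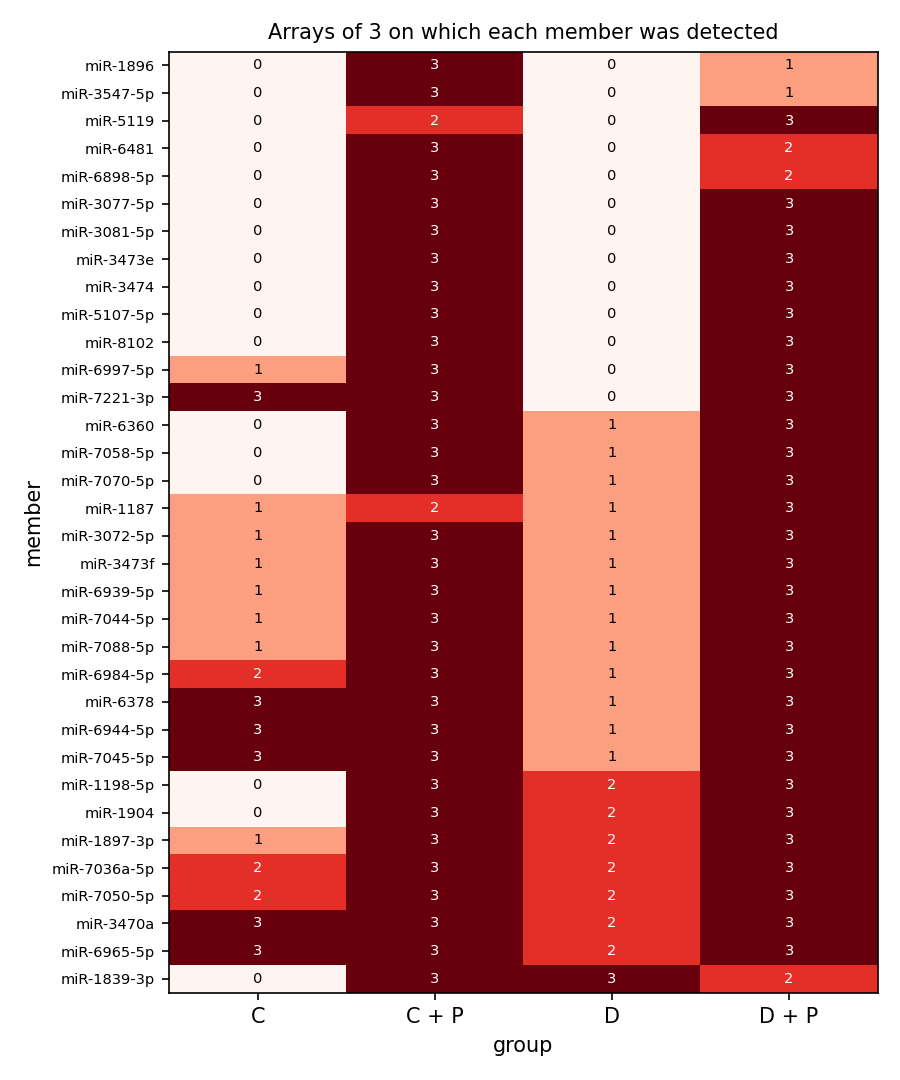
Number of arrays, of 3 per group, on which each of the 34 members outside the 128 was detected, with darker red for more arrays. The columns of C + P and D + P are nearly full (32 and 29 members on all 3 arrays), and those of C and D hold 6 and 1 members on all 3 arrays.

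In 6 members, miR-3077-5p, miR-3081-5p, miR-3473e, miR-3474, miR-5107-5p and miR-8102, detection occurred on all 6 arrays of slide 2 and on none of slide 1, a pattern found for 0 lower-numbered miRNAs. MiR-3081-5p, in the span of the cell surface receptor gene Boc, gave 2.93, 3.56 and 11.1 in C + P and 9.26, 10.3 and 6.27 in D + P. MiR-3474 gave 6.67, 3.47 and 7.90 in C + P and 8.82, 7.77 and 7.21 in D + P. All detected signals of the 6 were low, between 2.93 and 11.1, and slide and pargyline cannot be told apart here.

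Further detection patterns are given for single members. MiR-7221-3p was detected on every array except those of D, with 4.23, 4.12 and 4.10 in C, 4.04, 5.45 and 11.7 in C + P, and 7.93, 6.51 and 4.19 in D + P. MiR-1839-3p was the 1 member seen on every D array and on no C array, with 9.99, 3.83 and 6.54 in D and 2.83, 6.36 and 11.3 in C + P, and it was undetected in D + P replicate 1. Of the lower-numbered miRNAs outside the 128, 18 had this pattern of C and D. MiR-6997-5p, in the span of the spectrin gene Sptan1, was undetected in D and, in C, detected on replicate 1 alone (2.39). It gave 7.45, 8.21 and 9.91 in C + P and 11.5, 10.4 and 8.88 in D + P. Of the 34 members, 9 were undetected in D and detected on all D + P arrays, against 0 of the 47 lower-numbered miRNAs. MiR-1904, in the span of the phosphodiesterase gene Pde4d, was undetected in C and on D replicate 3. It gave 8.74, 9.41 and 16.8 in C + P, 4.12 and 3.11 in D replicates 1 and 2, and 4.47, 8.66 and 10.8 in D + P. Undetected in C and detected on all C + P arrays were 16 of the 34 members and 27 of the 47 lower-numbered miRNAs.

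These members were in the table because some group had detected them on all its arrays, so the direction of a difference from an undetected group was fixed by the choice and no test of it is given. Their geometric mean signals were set against that of the lowest detected signals of the other group's arrays, without normalization. The true level of an undetected miRNA may lie above or below that signal, so the ratios are descriptions and not bounds. The ratio was 6.14 for miR-6997-5p in D + P against D, 5.08 for miR-3081-5p and 4.76 for miR-3474. For miR-7221-3p it was 2.498 in C and 3.61 in D + P, both against D. It was 3.22 for miR-1839-3p in D against C and 5.699 for miR-1904 in C + P against C. A fit over all 209 miRNAs, with undetected values set to the lowest detected signal of the array, served as an alternative only. It called 46.9, 18.2, 47.8 and 5.74% of the 209 in D versus C, C + P versus C, D + P versus D and D + P versus C + P, and 58.9% in the interaction.

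A further 5 members, miR-6378, miR-3470a, miR-6944-5p, miR-6965-5p and miR-7045-5p, were detected on some D arrays and on all arrays of the other groups. MiR-6378 gave 4.52, 4.203 and 8.72 in C, 4.36, 5.26 and 8.13 in C + P, 3.43 in D replicate 1 alone, and 9.42, 8.89 and 5.48 in D + P. MiR-6944-5p, which opens with GUGAG, gave 5.51, 4.60 and 3.89 in C, 4.94, 6.05 and 8.27 in C + P, 4.31 in D replicate 1 alone, and 9.04, 11.2 and 6.83 in D + P. Both were thus undetected on 2 of 3 D arrays, as was miR-7045-5p, which gave 4.35 in D replicate 1 alone. MiR-3470a gave 11.2, 11.6 and 10.1 in C, 7.96, 16.04 and 27.9 in C + P, 15.1 and 7.60 in D replicates 1 and 2, and 19.4, 20.7 and 15.002 in D + P. It was undetected on D replicate 3, while D replicate 1 exceeded every C array and D replicate 2 was below them. Members outside the 128 whose signals are not printed had detected signals of at most 21.99, the highest being that of miR-6965-5p in C + P replicate 3.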

How the data were processed

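For each of 12 hearts the authors deposited the scanner software's 1-colour intensity, its error and a detection flag for 1881 miRNAs, with 0.1 written for an undetected miRNA and no normalization between arrays. A table of normalized intensity, also deposited by them, named the 209 miRNAs used here and gave 1 alternative. The methods give 100 ng of labelled RNA and the sample records 200 ng. The members and lists were chosen with earlier results of these data known.

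MiRNAs detected on all 12 arrays (128) were log2 transformed, normalized by cyclic loess (span 0.7, 3 iterations, as the methods name this algorithm) and fitted with limma 3.58.1 in R 4.3.3 as 4 group means, with Benjamini-Hochberg adjustment over the 128. A fit over 209 miRNAs set undetected values to the lowest detected signal of the array. Slopes, detection counts and sequence features are descriptions. The fit was also run on simulated data with balanced changes in D alone and the same spread in every group. That setting differs from these arrays, so it cannot show whether the calls here are right. Signals do not give numbers of molecules, and 3 arrays per group limit the precision. No pair of arrays held identical signals. Of 18 same-number pairs of arrays, 4 correlated over 0.1, the highest at 0.49. Pairs with different numbers were not compared, so whether replicate numbers pair the arrays was not settled.

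The naming rule gave every member detected on all arrays, members called in the wider fit, and members undetected in 1 whole group and detected in another. Of these, the values on every array are printed for the brightest, the most changed and the detection patterns, and the others are named or given by range. The sequences printed are likewise a selection, taken from RefSeq tables (GRCm38.p6), and 1 result on the sequence and position of a member is not reported here. MiR-1839-3p, miR-1897-5p, miR-1949, miR-3470a, miR-3960, miR-5107-5p, miR-6360, miR-6378 and miR-7042-5p had no sequence there. Python 3.11.15, pandas 2.3.3 and matplotlib 3.10.9 were used for tables and plots. Alternatives were quantile normalization, 75th percentile scaling, no normalization, slides normalized separately, wider filters on detection, the authors' values, 16 added before log2, an intensity trend, the methods' t-test, the groups of a comparison alone, a replicate block, and each array left out.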

Additional observations from a re-analysis of the deposited data

Results flagged for a closer look

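The interaction, the difference between the pargyline effect in diabetic and in control hearts, passed limma's test in 28 of 38 members, with 70.3% of all 128 miRNAs called. It was 3.02 for miR-7005-5p, 2.95 for miR-5622-3p and 2.02 for miR-3620-5p. Values between 1.5 and 1.8 belonged to miR-7042-5p (1.74), miR-7047-5p (1.69), miR-6937-5p (1.65), miR-7118-5p (1.54) and miR-7686-5p (1.54). Next came miR-1224-5p (1.45), miR-5126 (1.41), miR-8110 (1.38), miR-8117 (1.38), miR-3960 (1.36), miR-6769b-5p (1.26) and miR-1895 (1.22). MiR-1897-5p (1.16), miR-6931-5p (1.16), miR-5128 (1.11), miR-3102-5p (1.08), miR-7002-5p (1.06) and miR-7082-5p (1.06) lay near 1. The values were lower for miR-2861 (0.85), miR-7018-5p (0.77), miR-3473b (0.75), miR-3473a (0.73), miR-6366 (0.52) and miR-3963 (0.51), and miR-1949 stood alone below 0 at -0.81. These values are on the normalized log2 scale.

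Detected high-numbered miRNAs outside the table of 209 numbered 5, 5 and 21 on the C + P arrays and 8 and 10 on D + P replicates 1 and 2, above the C arrays, which held at most 2. D + P replicate 3 held 1, and the D arrays 1, 1 and 0.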

How the results depend on the processing

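The counts of members called in D versus C, C + P versus C, D + P versus D, D + P versus C + P and the interaction were 21, 14, 22, 0 and 28. Over all 128 miRNAs the counts were 64, 47, 69, 17 and 90. Without normalization the members' counts were 5, 17 (all higher), 8, 0 and 7, where 60, 96, 8, 2 and 70 of the 128 were called. Over the 209 miRNAs the members' counts were 33, 13, 37, 1 and 44 of 72, where 98, 38, 100, 12 and 123 of the 209 were called. Of the 72, 34 entered through the groups that detected them. With no filter on detection the members' counts were 0 each, with 38, 31, 41, 13 and 45 at an unadjusted p under 0.05. In D versus C, 5 of all miRNAs were called with no filter. Quantile normalization gave 5 in C + P versus C and 8 in D + P versus D, and 75th percentile scaling 9 in C + P versus C. Each slide normalized alone gave 37 in D + P versus D, where it keeps any signal shift between slides, and 1 in D + P versus C + P. With 16 added before log2, D + P versus C + P gave 4. With the authors' values D + P versus D gave 0. Fitting the groups of a comparison alone gave 25 in C + P versus C and 0 in D + P versus D, with 16 at an unadjusted p. Under Benjamini-Hochberg adjustment the methods' t-test gave 5 in D versus C, where 23 of the 128 were called, and 0 in D + P versus D. With Holm adjustment it gave 0 in D versus C, C + P versus C and D + P versus D, with 21, 22 and 4 at an unadjusted p. In D versus C it called 2 of the 128. Where no count over all miRNAs is given, a fall need not be particular to the members. Scaling to the median of the lower-numbered miRNAs, chosen after seeing the data, gave 4 in C + P versus C and 3, all lower, in D + P versus C + P. Leaving out each array gave 11 to 28, 0 to 23, 6 to 29, 0 to 21 and 21 to 28 members. Of the 128 it called 33 to 88, 3 to 79, 13 to 89, 1 to 73 and 76 to 96. With the replicate block the members' counts were 19, 10, 16, 1 and 26, and whether the numbers pair the arrays was not settled. The members' median slope of 0.45 was 0.20 on lower-numbered signal alone and 0.027 within slide 1. The cause of these moves was not tested, apart from the samples or miRNAs that an alternative leaves out or adds. Of 85 calls of single members, 82 held with an intensity trend, 76 with 16 added, 71 with the replicate block, 40 with the authors' values and 16 without normalization.

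Without normalization the sign turned for miR-3473b in D versus C (0.20). In C + P versus C it turned for miR-1224-5p (0.34), miR-1895 (0.43), miR-3102-5p (0.26), miR-3620-5p (0.17), miR-3960 (0.30), miR-5126 (0.13), miR-6769b-5p (0.39), miR-6937-5p (0.11), miR-7047-5p (0.16), miR-7082-5p (0.45) and miR-8110 (0.15). In the interaction it turned for miR-2861 (-0.011), miR-3473a (-0.18), miR-3473b (-0.43), miR-3963 (-0.94) and miR-6366 (-0.84), and with the authors' values for miR-3963 (-0.16) and miR-6366 (-0.22). With each slide normalized alone it turned for miR-7082-5p in C + P versus C (0.11) and for miR-1949 in D + P versus D (0.071).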
